A study of Mus musculus with 20 samples.

Results

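The 7 genes described here encode the microglial receptor Trem2, its signalling adaptor Tyrobp and proteins that act below, beside or above them: Syk, Plcg2, Inpp5d, Spi1 and Cd33. They were chosen by name, with earlier results of these data known, so their counts beside all genes are descriptions. Each was found in the deposited mRNA table, 7 of 21949 genes, with 21 of its 50660 transcripts. RNA was sequenced from frozen cerebral cortex of mice on a (C57BL/6 x C3H)F1 background. The groups WT03M and WT10M are wild-type mice aged 3 and 10 months. The groups TG03M and TG10M carry Tg(Prnp-MAPT*P301S)PS19Vle (PS19), a mutant human tau gene expressed from the prion protein promoter, at the same ages. Each group has 5 libraries, numbered as replicates; whether each is a separate animal is not stated, so p values measure the spread between these libraries, which may be technical.

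Trem2 is a surface receptor of microglia, the resident macrophages of the brain, and binds lipids, lipoproteins and anionic ligands. It has no signalling tail and pairs with Tyrobp (DAP12), whose phosphorylated tyrosine motif (ITAM) recruits the kinase Syk. Syk in turn activates phospholipase C gamma (Plcg2) and the phosphoinositide 3-kinase pathway, while the phosphatase SHIP1 (Inpp5d) opposes such signals. Human CD33 is an inhibitory receptor that opposes them as well, a role not taken here for mouse Cd33. The transcription factor PU.1 (Spi1) controls many myeloid genes, including members of this pathway. Variants at several of the human counterparts alter the risk of Alzheimer's disease, which makes their RNA of interest in a tau model.

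On the mouse genome build GRCm38, with GENCODE M21 annotation, Trem2 (ENSMUSG00000023992) lies on chromosome 17 from 48346401 to 48354147 on the plus strand. Tyrobp (ENSMUSG00000030579) lies on chromosome 7 from 30413760 to 30417585 on the plus strand, 127 bases from Hcst, the gene of the related adaptor DAP10. Syk (ENSMUSG00000021457) lies on chromosome 13 from 52583173 to 52648792, Plcg2 (ENSMUSG00000034330) on chromosome 8 from 117498291 to 117635142, Inpp5d (ENSMUSG00000026288) on chromosome 1 from 87620312 to 87720507 and Spi1 (ENSMUSG00000002111) on chromosome 2 from 91082390 to 91115756, all on the plus strand. Cd33 (ENSMUSG00000004609) lies on chromosome 7 from 43524216 to 43544428 on the minus strand. No annotated gene overlaps any of the 7 other than the miRNA gene Gm27361, which overlaps Plcg2.

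RefSeq promoter windows matched 5 of the 7 genes, Trem2, Syk, Plcg2, Inpp5d and Cd33, in 6 windows. The 150 bases before the annotated start of Trem2 (chr17:48346251-48346400), Plcg2 (chr8:117498125-117498274) and Inpp5d (chr1:87620162-87620311) are printed from 5′ to 3′ on the plus strand of GRCm38.p6. They are shown because Trem2 and Plcg2 were 2 of the genes with higher RNA in TG10M. Inpp5d was added because it alone of the 5 genes with windows matched the longer motif GAGGAAGT. Capitals mark GAGGAA, the short core to which PU.1 binds, or its reverse complement.
Trem2: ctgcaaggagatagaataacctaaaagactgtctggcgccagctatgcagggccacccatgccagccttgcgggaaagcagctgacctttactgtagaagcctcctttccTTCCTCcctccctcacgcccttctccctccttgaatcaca
Plcg2: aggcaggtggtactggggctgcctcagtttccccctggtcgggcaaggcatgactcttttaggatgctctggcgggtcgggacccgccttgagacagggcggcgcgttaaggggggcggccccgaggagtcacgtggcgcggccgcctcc
Inpp5d: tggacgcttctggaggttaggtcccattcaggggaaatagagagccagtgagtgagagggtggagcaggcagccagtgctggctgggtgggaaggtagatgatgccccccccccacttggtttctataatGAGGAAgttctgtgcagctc

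The longer motif GAGGAAGT was searched on both strands of the 250 bases before each start. It was found in Inpp5d alone among the 5 members with windows, 20 to 13 bases before its start. It was present in 2.44% of the 32851 promoter windows in the table. The shorter GAGGAA, which is part of it, was found in 4 of the 6 windows, those of Inpp5d, Cd33, Syk and, on the reverse strand 40 to 35 bases before the start, Trem2, and in 23.3% of all windows. The matching windows of Syk and Cd33 lie inside the spans of these genes given above, not at their outer starts. Neither motif was found in the Plcg2 window or in another window, of Syk or Cd33. These are matches of letters and show no binding. Guanine and cytosine made up 69.3% of the printed Plcg2 stretch, 56.7% of that of Inpp5d and 54.7% of that of Trem2.

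Levels are given as FPKM, fragments scaled to the length of a transcript and to the mapped fragments of a library, summed over the transcripts of a gene. FPKM are scaled to length and can be compared between genes. All 7 genes passed the filter of a mean of at least 0.5 FPKM over the 20 libraries. Tyrobp had the highest mean, 30.9 FPKM, followed by Trem2 at 9.56, Inpp5d at 3.69, Plcg2 at 1.33, Spi1 at 1.30, Cd33 at 1.05 and Syk at 0.843. The order Tyrobp, Trem2, Inpp5d, Plcg2 held in 20 of 20 libraries. Plcg2 exceeded Spi1 in 11 of 20 libraries, so those neighbours did not differ beyond their spread, whereas Spi1 exceeded Cd33 in 18 of 20 and Cd33 exceeded Syk in 16 of 20. The receptor and its adaptor therefore had far more RNA per length than the kinase and the lipase below them.

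The libraries did not vary by group alone. On the leading principal component, with 23.9% of the variance, WT10M replicate 5 and TG10M replicates 1 and 5 stood apart from the 17 others, and these 3 libraries and TG03M replicates 2 to 5 had 13.9 to 20.5 FPKM of the chaperone gene Hsp90aa1 against 532 to 687 in the others. The mitochondrial transcript mt-Co1 had 8514 to 11807 FPKM in the 10 transgenic libraries, 5998 to 6915 in 9 wild-type ones and 13045 in WT10M replicate 5, and the part of that difference in the genotype contrasts below was not tested. A batch, a date or the sex of the animals is not stated. Depth, estimated from the spacing of the lowest FPKM, was 22.8 to 30.4 M fragments per library, and at that depth the values of Plcg2 correspond to about 82 to 238 fragments in a library. Markers of cortical excitatory neurons were present in all libraries, with a summed level of 378 to 532 FPKM.

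RNA of the receptor, of its adaptor and of the phospholipase was higher in transgenic than in wild-type cortex at 10 months. Tyrobp, the adaptor, had 1.03 higher log2(FPKM + 0.5) in TG10M than in WT10M, Trem2 0.67 and Plcg2 0.44, whereas Spi1, Cd33, Syk and Inpp5d had positive differences that did not pass the test. The threshold for a call was an adjusted p (Benjamini-Hochberg, limma) under 0.05 over 13722 genes. By this rule 3 of the 7 members were called higher and 0 lower, where 0.583% of all genes tested were called higher and 0.051% lower. The same 3 members did not overlap between the groups, as for 1.65% of all genes in that direction. All 7 differences were positive, with a median of 0.44 against 0.00 over all genes, and 5 of 7 had an unadjusted p under 0.05, as 14.1% of all genes did. The count called was 4 without the 3 libraries that stand apart, Spi1 being added, 5 with array weights, 1 with the compared groups alone (Tyrobp) and 1 without WT10M replicate 1 or 3 or TG10M replicate 1 or 4.

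**Figure D1:**
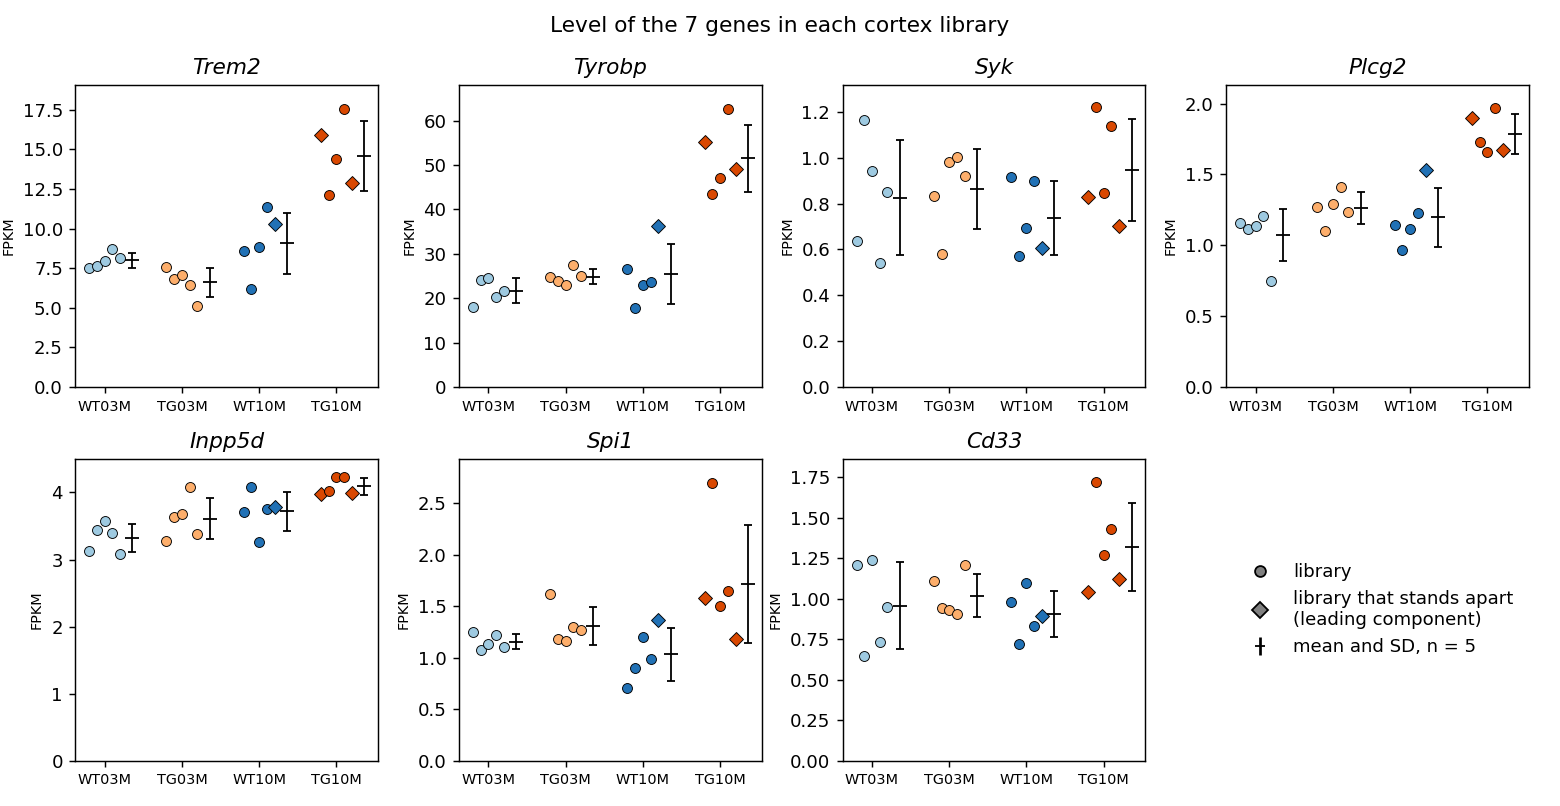
Level of each of the 7 genes (FPKM, linear axes from 0) in the 20 cortex libraries, by group; points are libraries, diamonds the 3 libraries that stand apart on the leading component, and bars the mean and SD of 5 libraries. The 5 TG10M libraries lie above the 15 others for Trem2 (lowest 12.1 against 11.4 FPKM), Tyrobp (43.5 against 36.3) and Plcg2 (1.66 against 1.53), and overlap with the others for Syk, Inpp5d, Spi1 and Cd33.

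Trem2, the receptor, had 15.9, 12.1, 14.4, 17.5 and 12.9 FPKM in TG10M replicates 1 to 5. In WT10M it had 8.62, 6.21, 8.86, 11.4 and 10.3 FPKM. Every TG10M library was above every WT10M library, with replicate 4 the highest of both groups. The means were 14.6 ± 2.20 and 9.07 ± 1.95 FPKM (SD, n = 5), a ratio of 1.61, and the difference of 0.67 (SE 0.13) had an adjusted p of 0.0202 in limma. The call ended when WT10M replicate 1 or 3 or TG10M replicate 1 or 4 was left out (adjusted p at most 0.0679), and in a fit of the compared groups alone (0.148).

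In the younger animals Trem2 did not lie higher with the transgene. It had 7.53, 7.63, 7.98, 8.72 and 8.14 FPKM in WT03M replicates 1 to 5. In TG03M it had 7.59, 6.81, 7.08, 6.46 and 5.13 FPKM. All 5 TG03M libraries were below the WT03M mean, and the groups overlapped only through TG03M replicate 1. The means were 8.0 ± 0.472 and 6.61 ± 0.927 FPKM (SD, n = 5), and the difference of -0.27 (SE 0.13, unadjusted p = 0.0524) did not pass (adjusted p = 0.477, limma). TG03M replicate 1 was also the only one of its group with a high Hsp90aa1 level, and against WT03M, whose libraries all had high levels, it alone differed by -0.07; the part of that split in the difference was not tested.

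Tyrobp, the ITAM adaptor through which Trem2 signals, had 55.1, 43.5, 47.1, 62.6 and 49.2 FPKM in TG10M replicates 1 to 5. In WT10M it had 26.5, 17.9, 22.9, 23.8 and 36.3 FPKM. The groups did not overlap, and the highest WT10M value was that of replicate 5, one of the libraries that stand apart. The means were 51.5 ± 7.50 and 25.5 ± 6.82 FPKM (SD, n = 5), a ratio of 2.02, and the difference of 1.03 (SE 0.14) had an adjusted p of 0.000742 in limma. It was called under each of the alternatives run, leaving out any 1 library included. At 3 months Tyrobp had 24.9, 23.8, 23.1, 27.6 and 25.1 FPKM in TG03M and 18.0, 24.2, 24.6, 20.4 and 21.6 FPKM in WT03M. All 5 TG03M libraries were above the WT03M mean, but the groups overlapped and the difference of 0.20 (SE 0.14) did not pass (adjusted p = 0.646, limma).

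Plcg2, the phospholipase C that hydrolyses a membrane phosphoinositide below Syk, had 1.90, 1.73, 1.66, 1.97 and 1.67 FPKM in TG10M replicates 1 to 5. In WT10M it had 1.14, 0.969, 1.12, 1.23 and 1.53 FPKM. The groups did not overlap, and WT10M replicate 5 was again the nearest to TG10M. The means were 1.79 ± 0.140 and 1.20 ± 0.208 FPKM (SD, n = 5), a ratio of 1.49, and the difference of 0.44 (SE 0.10) had an adjusted p of 0.0422 in limma. This call was close to the threshold: it ended in 9 of the 10 fits that left out 1 of the compared libraries, all but that without WT10M replicate 5 (adjusted p at most 0.142), and in a fit of the compared groups alone (0.148). At 3 months Plcg2 had 1.27, 1.10, 1.29, 1.41 and 1.24 FPKM in TG03M and 1.16, 1.12, 1.13, 1.21 and 0.746 FPKM in WT03M, and the difference of 0.17 (SE 0.10) did not pass (adjusted p = 0.547, limma).

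Spi1, which encodes the transcription factor PU.1, had 1.58, 2.69, 1.5, 1.65 and 1.18 FPKM in TG10M replicates 1 to 5. In WT10M it had 0.710, 0.902, 1.20, 0.991 and 1.36 FPKM. The highest value belonged to TG10M replicate 2, and the lowest TG10M library, replicate 5, was below the highest WT10M one, so the groups overlapped. The means were 1.72 ± 0.573 and 1.03 ± 0.256 FPKM (SD, n = 5), and the difference of 0.52 (SE 0.14, unadjusted p = 0.00136) did not pass (adjusted p = 0.109, limma). Without the 3 libraries that stand apart it was 0.73 and passed (adjusted p = 0.0169, limma). In that fit TG10M had 3 libraries, replicate 2 among them. The value of replicate 2 comes largely from short transcripts, as given below, and its part in the pass was not tested. At 3 months Spi1 ranged from 1.17 to 1.62 FPKM in TG03M and from 1.08 to 1.25 FPKM in WT03M.

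Cd33, a receptor of the family that binds sialic acid, had 1.04, 1.72, 1.27, 1.43 and 1.12 FPKM in TG10M replicates 1 to 5. In WT10M it had 0.981, 0.722, 1.10, 0.834 and 0.896 FPKM. Of the TG10M libraries 4 were above the highest WT10M value, and the difference of 0.36 (SE 0.12) did not pass (adjusted p = 0.192, limma). Mouse Cd33 had 0.904 to 1.21 FPKM in TG03M and 0.648 to 1.24 FPKM in WT03M, with a difference of 0.08 (adjusted p = 0.876).

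Syk, the kinase that docks on the phosphorylated adaptor, had 0.827, 1.22, 0.847, 1.14 and 0.700 FPKM in TG10M and 0.914, 0.572, 0.692, 0.898 and 0.608 FPKM in WT10M. The groups overlapped, with 2 TG10M libraries above every WT10M one, and the difference was 0.22 (SE 0.14, adjusted p = 0.472, limma). At 3 months its values ran from 0.578 to 1.0 FPKM in TG03M and from 0.540 to 1.17 FPKM in WT03M, a difference of 0.05 (adjusted p = 0.933).

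Inpp5d, the phosphatase SHIP1 that removes a phosphate from the product of phosphoinositide 3-kinase, had 3.98, 4.02, 4.23, 4.23 and 4.0 FPKM in TG10M and 3.71, 4.08, 3.26, 3.76 and 3.78 FPKM in WT10M. Its means were 4.09 ± 0.127 and 3.72 ± 0.294 FPKM (SD, n = 5). The difference of 0.12 (SE 0.07) did not pass (adjusted p = 0.397, limma), and its SE was the smallest of the 7. At 3 months it had 3.28 to 4.08 FPKM in TG03M and 3.08 to 3.57 FPKM in WT03M, a difference of 0.10 (adjusted p = 0.609).

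At 3 months, then, 0 of the 7 members were called in limma, and 0 had an unadjusted p under 0.05, where 0.299% of all genes tested were called in either direction and 10.6% had an unadjusted p under 0.05. Of the 7 differences 6 were positive, Trem2 being the exception, with a median of 0.10. With age in wild-type cortex, WT10M against WT03M, 0 of 7 were called as well, against a background of 0.0656%, and 1 had an unadjusted p under 0.05. That member was Inpp5d, at 0.14 (SE 0.07, adjusted p = 0.713). Trem2 differed by 0.15 and Tyrobp by 0.19 in that comparison (adjusted p = 0.894 and 0.873).

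In transgenic cortex the comparison of ages, TG10M against TG03M, gave 2 members called higher, where 0.641% of all genes tested were. Trem2 differed by 1.08 (SE 0.13, adjusted p = 0.000107, limma), from 6.61 to 14.6 FPKM, a ratio of 2.20. Tyrobp differed by 1.03 (SE 0.14, adjusted p = 0.000457), from 24.9 to 51.5 FPKM, a ratio of 2.07. Both calls held under each alternative run. Plcg2 differed by 0.37 (SE 0.10) and did not pass (adjusted p = 0.0712). Every TG10M library was above every TG03M library in these 3 members, as for 1.84% of all genes tested. Cd33 at 0.25, Spi1 at 0.27, Inpp5d at 0.16 and Syk at 0.08 did not pass, with adjusted p from 0.241 to 0.777. This comparison shares the TG10M libraries with that of the genotypes at 10 months, so the 2 are not independent.

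Whether the genotype difference itself changed with age was tested as an interaction. It was 0.94 for Trem2 (SE 0.18, unadjusted p = 5.29e-05, adjusted p = 0.109, limma) and 0.83 for Tyrobp (SE 0.19, unadjusted p = 0.000351, adjusted p = 0.268). These were the 2 members with an unadjusted p under 0.05, as 5.04% of all genes had, and 0 of 7 were called, where 0.0364% of all genes tested were. All 7 interaction values were positive, from 0.02 for Inpp5d to 0.94 for Trem2, with a median of 0.29. Leaving out WT10M replicate 4 brought Trem2 past the threshold (adjusted p = 0.0326), and leaving out WT10M replicate 5 did so for Tyrobp (adjusted p = 0.0229).

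**Figure D2:**
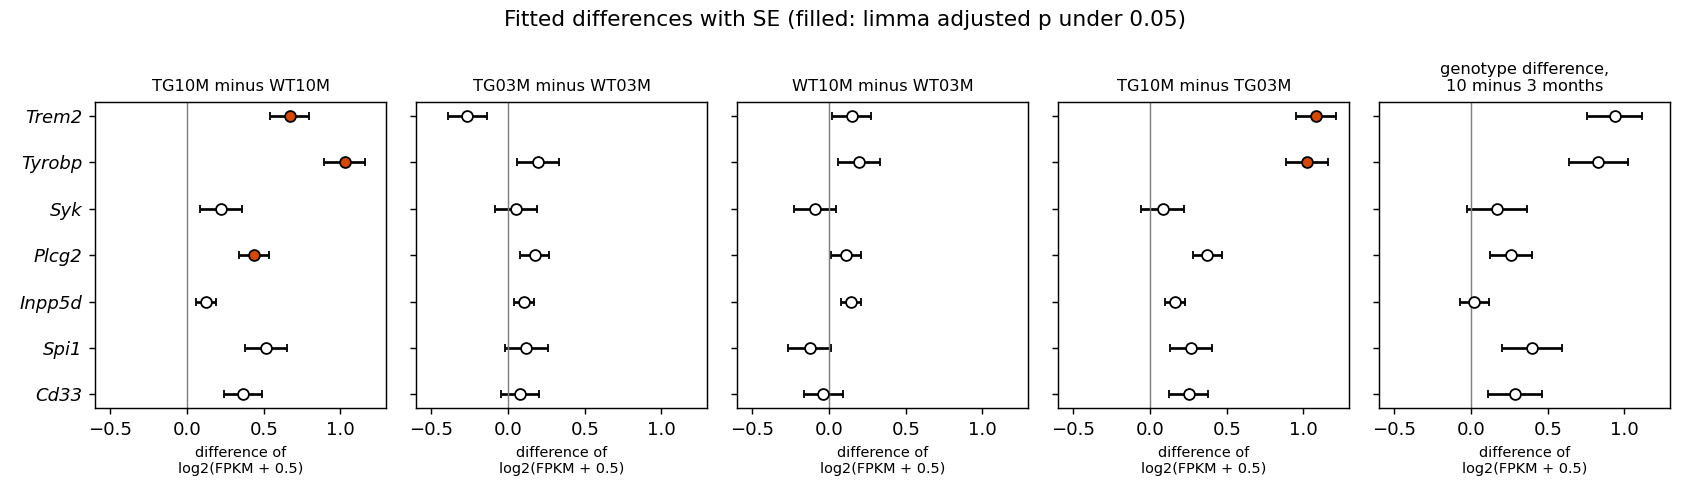
Difference of log2(FPKM + 0.5) for each of the 7 genes in 5 comparisons, with its SE from limma; filled points have an adjusted p under 0.05. Filled points are Trem2, Tyrobp and Plcg2 for TG10M minus WT10M and Trem2 and Tyrobp for TG10M minus TG03M, and Trem2 is the only gene to the left of 0 for TG03M minus WT03M.

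Every TG10M library exceeded all 15 others in Trem2, Tyrobp and Plcg2, a pattern that 0.452% of the genes tested showed. The margins were narrow for Plcg2, with a lowest TG10M value of 1.66 FPKM against a highest other value of 1.53, and for Trem2, with 12.1 against 11.4. The other 4 members overlapped. The highest other value of Tyrobp and of Plcg2 was that of WT10M replicate 5, and that of Trem2 was WT10M replicate 4.

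Within the sets of libraries the genotype difference at 10 months kept its sign but not its size. In the 7 libraries that do not stand apart (3 TG10M, 4 WT10M) it was 0.73 for Trem2, 1.14 for Tyrobp, 0.50 for Plcg2, 0.73 for Spi1, 0.49 for Cd33, 0.31 for Syk and 0.15 for Inpp5d. In the 3 that do (2 TG10M, 1 WT10M) it was 0.46, 0.51, 0.17, 0.00, 0.18, 0.19 and 0.07 in the same order, with 1 library on the wild-type side and no test made. Between the ages of transgenic mice, the difference was taken in libraries with low Hsp90aa1 (2 TG10M, 4 TG03M) and with high Hsp90aa1 (3 TG10M, 1 TG03M). It was 1.12 and 0.89 for Trem2, 1.05 and 1.0 for Tyrobp, 0.38 and 0.36 for Plcg2, -0.11 and 0.23 for Syk, 0.10 and 0.30 for Inpp5d, 0.11 and 0.17 for Spi1 and 0.08 and 0.29 for Cd33. The part of either split in these differences was not tested.

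Tyrobp did not keep a fixed proportion to Trem2 across the groups. The ratio of their FPKM was 2.33 to 3.17 in WT03M and 2.09 to 3.53 in WT10M. It was 3.26 to 4.89 in TG03M and 3.27 to 3.82 in TG10M. The lowest transgenic ratio at 3 months was above the highest wild-type one, whereas at 10 months WT10M replicate 5, at 3.53, lay within the TG10M range. The ratio was chosen after its values were seen, so it is given as a description without a test.

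**Figure D3:**
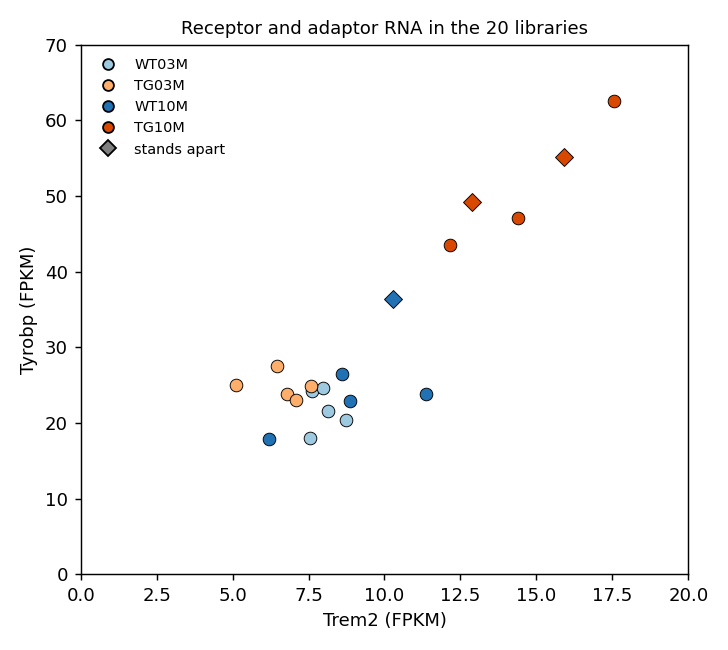
Tyrobp against Trem2 (both FPKM, linear axes from 0) in the 20 cortex libraries, coloured by group, with diamonds for the 3 libraries that stand apart. The 5 TG10M libraries lie at 12.1 to 17.5 FPKM of Trem2 and 43.5 to 62.6 FPKM of Tyrobp, and the TG03M libraries have the lowest Trem2 level, 5.13 FPKM, at 23.1 to 27.6 FPKM of Tyrobp.

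Over the 20 libraries the gene whose log2 values were most like those of Trem2 was Ctsz, a lysosomal cathepsin, with Pearson's r of 0.92 among 12273 genes compared. Aif1, a marker of microglia and macrophages, followed at 0.90, then Lrig1 at 0.89, Sfxn5 at 0.88 and the complement gene C4b at 0.88. Tyrobp stood at rank 13 with 0.84. Most like Tyrobp were Ly86 (0.95), the cathepsin gene Ctsd (0.95), the complement gene C1qa (0.94), the cathepsin gene Ctss (0.92) and Sfxn5 (0.92), and Plcg2 stood at rank 8 with 0.89. Within groups, after removal of each group's mean, r with Trem2 was 0.79 for Aif1, 0.61 for Ctsz, 0.59 for Lrig1, 0.58 for Sfxn5 and 0.36 for C4b, and r with Tyrobp was 0.82 for Ly86, 0.80 for C1qa, 0.75 for Sfxn5, 0.73 for Ctss and 0.71 for Ctsd. The 20 points share groups, depth and the libraries that stand apart, so these values describe the libraries only. Syk had 0.20 with Trem2 and 0.36 with Tyrobp.

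The transcripts of the members give more detail. Trem2-201 (ENSMUST00000024791), with 681 coding bases in 5 exons, made up 84.9% of Trem2 FPKM on average, and Trem2-202 (ENSMUST00000113237), with 747 coding bases, 15.1% (range 2.39 to 24.9% over the libraries). In TG10M Trem2-201 had 11.8 ± 1.49 FPKM against 7.43 ± 1.51 in WT10M (SD, n = 5), and Trem2-202 had 2.74 ± 0.808 against 1.64 ± 0.810. The share of Trem2-202 was 18.5 ± 2.80% in TG10M, 17.7 ± 6.36% in WT10M, 10.8 ± 5.76% in TG03M and 13.4 ± 3.09% in WT03M. The TG10M libraries (16.5 to 23.3%) did not overlap with those of TG03M (2.39 to 16.3%) and lay within the range of WT10M (9.95 to 24.9%); these shares were not tested. Tyrobp and Plcg2 had 1 transcript each in the table, of 564 and 4298 bases.

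For Spi1 the main transcript Spi1-201, with 816 coding bases, had 1.34 ± 0.315 FPKM in TG10M and 0.967 ± 0.253 in WT10M (SD, n = 5). In TG10M replicate 2, the library with the highest Spi1 value, Spi1-201 had 0.941 FPKM, and the rest came from the short transcripts Spi1-203 with 0.917 and Spi1-204 with 0.835. These are 402 and 544 bases long, and the deposited FPKM do not show whether that split, and so the Spi1 value of this library, is reliable. Without TG10M replicate 2 the 10-month difference of Spi1 was 0.38. Of Inpp5d, Inpp5d-210 made up 59.4%. Of Cd33, Cd33-203 made up 62.6%. Syk was divided between Syk-201 (48.9%) and Syk-203 (47.4%), each with 1887 coding bases, and the split of a low-level gene between near-identical transcripts is uncertain.

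The members are genes of microglia, and the summed level of general markers of these cells was described beside them. The summed level of 12 microglia markers was 230 to 277 FPKM in TG10M, 174 to 237 in WT10M, 178 to 201 in TG03M and 171 to 196 in WT03M. Of the 12, 11 had a positive difference at 10 months, with a median of 0.29, 10 had an unadjusted p under 0.05 in limma and 1 was called, 0 to 9 with 1 library left out. Over all genes 0.583% were called higher at that age, 50.2% had a positive difference and 14.1% had an unadjusted p under 0.05. Markers of some other cells had positive differences as well. These were 6 of 6 for endothelium, with a median of 0.32 and 0 called (2 at an unadjusted p under 0.05). For oligodendrocytes they were 6 of 6, with a median of 0.19 and 0 called (4 at an unadjusted p under 0.05). Positive differences were 5 of 6 for astrocytes and 5 of 5 for erythroid cells. They were fewer for neurons (3 of 7, median -0.01), cortical excitatory neurons (2 of 7, -0.04), choroid plexus (1 of 6, -0.19) and neutrophils (0 of 2, -0.25). In bulk cortex, more microglia and more RNA of a gene in each of them cannot be told apart. Markers of other cells that could carry these genes were also counted. Of 8 markers of border macrophages 7 were tested, and 7 of 7 had a positive difference at 10 months, with a median of 0.29, 0 called and 4 at an unadjusted p under 0.05 in limma. Their summed level was 11.6 to 15.1 FPKM in TG10M and 8.18 to 11.6 in WT10M. The part of these cells in the members' differences was not tested. Lymphocyte markers summed to 0.12 to 0.47 FPKM in TG10M and 0.108 to 0.372 in WT10M, with all 9 under a mean of 0.5, while 6 monocyte markers summed to 2.8 to 10.7 FPKM in TG10M and 4.0 to 10.8 in WT10M. Of these 6, 4 were under a mean of 0.5 FPKM, Ccr2, Plac8 and Chil3 among them. Ly6c2 and Vcan were tested, with differences of 0.06 and -0.0029 at 10 months (adjusted p = 0.980 and 0.992, limma). Whether the RNA of Ly6c2 and Vcan came from monocytes or from other cells of the cortex was not tested.

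Each member was therefore also set against the microglia markers of its own library, as log2(FPKM + 0.5) minus the mean of the 12 markers, with an exact two-sided permutation test and adjustment over 14 tests (7 members at 2 ages). At 10 months Tyrobp was 1.97 ± 0.151 above the markers in TG10M and 1.25 ± 0.294 in WT10M (SD, n = 5). Its difference of 0.72 had a p of 0.00794, the smallest that 252 splits of 10 libraries can give, and an adjusted p of 0.0556 (exact permutation). Trem2 had a difference of 0.36 (exact permutation p = 0.0159, adjusted 0.0741), with 4 of the 5 TG10M libraries above every WT10M one. Plcg2 had 0.13 and Inpp5d -0.18 (exact permutation p = 0.0476 each, adjusted 0.133). Spi1 (0.21), Cd33 (0.05) and Syk (-0.09) had adjusted p from 0.630 to 0.861 (exact permutation). No member passed at an adjusted p under 0.05. Even the smallest possible p, that of Tyrobp, gave an adjusted p of 0.0556 over these 14 tests. Tyrobp could pass only if more of the other tests had low p values as well. The lack of a pass therefore does not show that Tyrobp kept to the level of the markers.

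At 3 months Trem2 had the most negative of the 7 differences relative to the markers. It lay 0.59 ± 0.188 below the markers in TG03M and 0.26 ± 0.0961 below them in WT03M (SD, n = 5), without overlap. The difference of -0.32 had an exact permutation p of 0.00794, again the smallest possible, and an adjusted p of 0.0556. The same limit of splits and tests holds for it. Tyrobp differed by 0.14 at that age (exact permutation p = 0.127, adjusted 0.296), and the other 5 members by -0.01 to 0.11 with adjusted p of at least 0.460 (exact permutation).

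**Figure D4:**
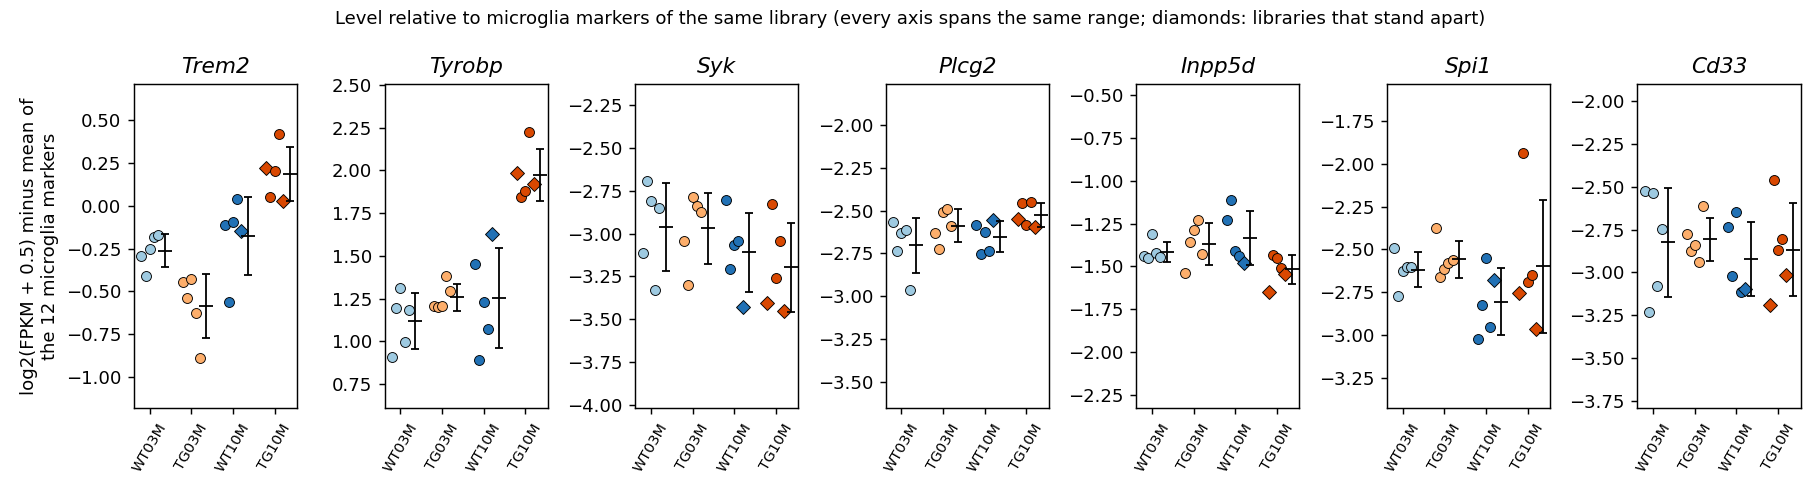
Level of each of the 7 genes relative to the microglia markers of the same library, as log2(FPKM + 0.5) minus the mean of the 12 markers; points are libraries by group, diamonds the 3 that stand apart, bars the mean and SD of 5 libraries, and every axis spans the same range. Tyrobp lies higher in TG10M than in WT10M by 0.72 and Trem2 lower in TG03M than in WT03M by 0.32, both without overlap. In TG10M against WT10M Trem2 lies higher by 0.36 and Inpp5d lower by 0.18, both with overlap. None of these differences passed (exact permutation, adjusted p from 0.0556 to 0.133).

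Around the members, 8 lists of pathway genes, also chosen with earlier results of these data known, were described by their counts. Of the ligands, sheddases and traffickers of Trem2, 9 of 14 were tested and 2 rose at 10 months, where 0.583% of all genes were called higher. Clu (clusterin), a ligand of Trem2, rose by 0.36 (SE 0.06, adjusted p = 0.00580, limma), from 309 ± 9.40 to 399 ± 31.1 FPKM, and Apoe, the apolipoprotein that Trem2 binds, by 0.27 (SE 0.06, adjusted p = 0.0390), from 1964 ± 61.3 to 2375 ± 148 FPKM. Both are made mainly by astrocytes in the brain, and of 6 markers of these cells 5 had a positive difference at 10 months, with 2 called (Gfap and Aqp4); the part of astrocytes in the values of Clu and Apoe was not tested. Clu also rose at 3 months, by 0.30 (SE 0.06, adjusted p = 0.0375), the only gene of the 8 lists to do so. In TG03M only replicate 1 had a high Hsp90aa1 level, as all WT03M libraries had. The part of that split in the Clu difference was not tested. The Apoe call at 10 months and the Clu call at 3 months each ended in 9 of the 10 fits that left out 1 of the compared libraries (adjusted p at most 0.129 and 0.139). With the compared groups alone the 10-month calls of Clu and Apoe ended (adjusted p = 0.0508 and 0.154, limma).

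A list of Trem family genes, other receptors that share Tyrobp or its relative Hcst, and Hcst itself was mostly too low to test. Of its 16 genes 3 were tested, Clec5a, Siglech and Hcst. At 10 months 0 were called, with 1 at an unadjusted p under 0.05 in limma. Over all genes 0.583% were called higher at that age and 14.1% had an unadjusted p under 0.05. Siglech, a Tyrobp-coupled lectin of microglia, had 10.7 ± 1.45 FPKM in TG10M and 9.42 ± 1.60 in WT10M (0.18, adjusted p = 0.571), and Clec5a 1.39 ± 0.332 and 0.846 ± 0.325 FPKM (0.50, adjusted p = 0.282). Of 4 tested genes of other ITAM adaptors and their receptors 0 were called at 10 months and 2 had an unadjusted p under 0.05. Fcer1g, the ITAM chain of Fc receptors, had 10.2 ± 1.36 FPKM in TG10M and 5.86 ± 1.95 in WT10M (0.78, adjusted p = 0.104). It rose against TG03M by 0.94 (SE 0.21, adjusted p = 0.0342), and 7 of the 10 fits without 1 compared library ended that call (adjusted p at most 0.0908), as did leaving out the 3 libraries that stand apart (0.0921).

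Genes below the adaptor were counted in the same way, against 0.583% of all genes called higher and 14.1% at an unadjusted p under 0.05 at 10 months. Of 26 tested Src family kinases and members of the Syk cascade, 0 were called at 10 months and 7 had an unadjusted p under 0.05, with a median difference of 0.03. Vav1, an exchange factor downstream of Syk, was at 0.36 (adjusted p = 0.109) and the adaptor Lat2 at 0.39 (adjusted p = 0.112). Lat2 rose in TG10M against TG03M by 0.63 (SE 0.11, adjusted p = 0.00513, limma), from 1.12 to 2.0 FPKM, and held its call with any 1 library left out. Of 18 genes of the phosphoinositide 3-kinase arm 0 were called at 10 months, 1 had an unadjusted p under 0.05, and the median was -0.02. Of 9 tested inhibitory receptors and phosphatases 0 were called and 1 had an unadjusted p under 0.05: Ptpn6, the phosphatase SHP-1, was at 0.32 (adjusted p = 0.157). Ptpn6 was called against TG03M at 0.46 (SE 0.10, adjusted p = 0.0331), and 7 of the 10 fits without 1 compared library ended that call, as did leaving out the 3 libraries that stand apart (adjusted p = 0.121).

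Spi1 was not called, and genes known as targets of PU.1 in myeloid cells were described beside it. Of 25 tested, 6 rose at 10 months, 24 had a positive difference and 21 had an unadjusted p under 0.05, with a median of 0.39 against 0.00 over all genes. Over all genes 0.583% were called higher, 50.2% had a positive difference and 14.1% had an unadjusted p under 0.05. Cyba, a subunit of the phagocyte NADPH oxidase, rose by 0.75 (SE 0.10, adjusted p = 0.000689, limma), from 8.40 ± 0.521 to 14.5 ± 2.31 FPKM. Lyz2, lysozyme, rose by 0.96 (adjusted p = 0.00198), Cd68, a lysosomal glycoprotein of macrophages, by 0.78 (adjusted p = 0.00410), Cd14, a lipopolysaccharide co-receptor, by 0.65 (adjusted p = 0.0149) and C1qa, a chain of complement C1q, by 0.74 (adjusted p = 0.0171), the 5 with the smallest p. The calls of Cyba, Lyz2 and Cd68 held with any 1 library left out. Those of Cd14 and C1qa ended without WT10M replicate 3 or TG10M replicate 1 or 4, and that of C1qa also without WT10M replicate 1, and both ended with the compared groups alone (adjusted p = 0.130 and 0.148, limma). The count was 3 without WT10M replicate 3 or TG10M replicate 1, 4 without TG10M replicate 4, 17 without WT10M replicate 5, 9 without the 3 libraries that stand apart, 3 with the compared groups alone and 15 with array weights. Aif1, Csf1r, Cx3cr1 and Itgam stand in this list and among the microglia markers.

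At 3 months 0 of the 25 targets were called and 3 had an unadjusted p under 0.05 in limma, with a median of 0.03. Over all genes 0.299% were called at that age and 10.6% had an unadjusted p under 0.05. Between the ages of transgenic mice 11 of 25 rose and 25 of 25 had a positive difference, with a median of 0.50. Over all genes 0.641% were called higher in that comparison and 50.2% had a positive difference. Lyz2 was at 1.23 (adjusted p = 0.000107), Cyba at 0.82 (0.000107), C1qa at 0.98 (0.000833), Ly86 at 0.99 (0.00688) and C1qc at 0.94 (0.0157). The count of 11 became 5 without TG10M replicate 4 and 6 without TG03M replicate 2 or 5 or TG10M replicate 1. It was 7 without TG10M replicate 5, and 6 without the 3 libraries that stand apart. The interaction called 1 of the 25, Cyba, at 0.88 (SE 0.14, adjusted p = 0.0122), where 0.0364% of all genes were called. Of 15 tested transcription factors that work with PU.1, Cebpa, a basic leucine zipper factor of myeloid cells and astrocytes, rose at 10 months by 0.47 (SE 0.09, adjusted p = 0.0214), from 4.87 ± 0.575 to 6.92 ± 0.913 FPKM. Irf5, an interferon regulatory factor, was called between the ages of transgenic mice at 0.53 (SE 0.12, adjusted p = 0.0348). The Cebpa call ended in 5 of the 10 fits without 1 compared library and with the compared groups alone (adjusted p = 0.148). The Irf5 call ended in 8 of 10 and without the 3 libraries that stand apart (adjusted p = 0.209).

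With age in wild-type cortex 0 genes of the 8 lists were called in limma, with 2 of 26 of the Syk cascade, 2 of 25 targets of PU.1 and 1 of 4 ITAM genes at an unadjusted p under 0.05, where 6.72% of all genes were.

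**Figure D5:**
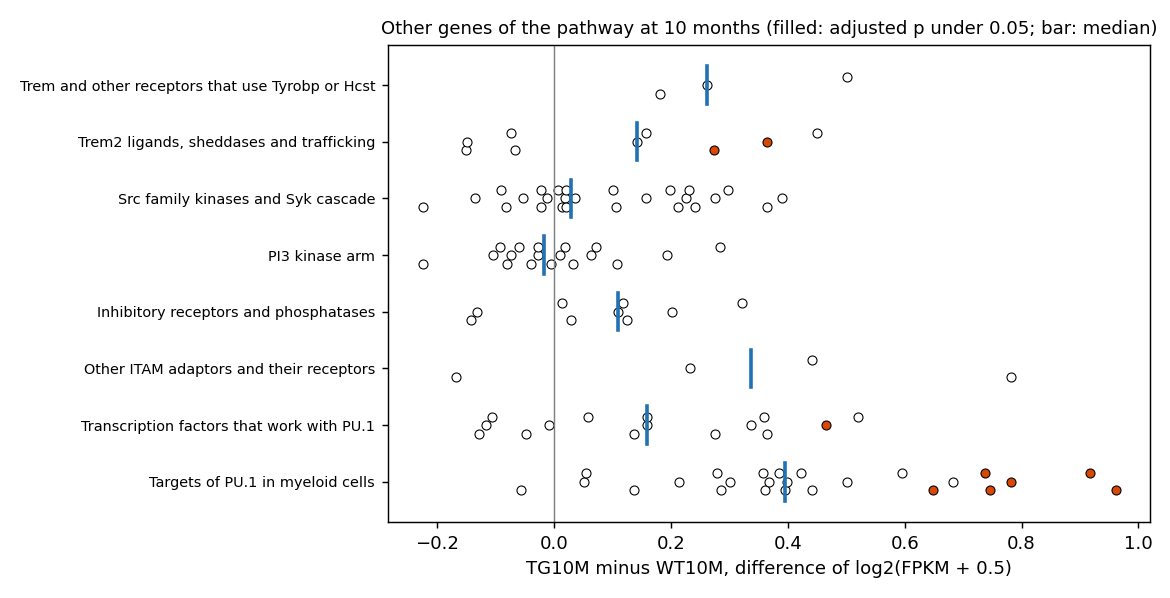
Difference of log2(FPKM + 0.5), TG10M minus WT10M, for each tested gene of the 8 pathway lists; filled points have a limma adjusted p under 0.05 and vertical bars are list medians. Filled points number 2 among the ligands, sheddases and trafficking genes, 1 among the transcription factors and 6 among the targets of PU.1, and the medians of the Syk cascade (0.03) and of the phosphoinositide 3-kinase arm (-0.02) lie near 0.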

How the data were processed

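The members and gene lists were chosen with earlier results of these data known. Per the labels, libraries were made from total RNA with a RIN above 7 and sequenced on an Illumina HiSeq 4000. The authors deposited FPKM per mRNA transcript; the submitters' processing notes name GRCm38 (mm10), CASAVA, TopHat2, Cuffdiff and DESeq2, without roles or versions. Their FPKM were summed per gene, and 27 symbols that had become dates were restored by gene ID. The table holds no read counts.

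Genes with a mean of at least 0.5 FPKM (13722) were tested with limma 3.58.1 in R 4.3.3 (trend, two-sided) on log2(FPKM + 0.5), a scale that understates changes of low genes, in 1 fit of 4 group means with 16 residual degrees of freedom. Adjustment was by Benjamini-Hochberg over all genes, and the fit was tested on simulated data. Depth was estimated from whole multiples of the lowest FPKM in 1815 genes with 1 transcript over 4000 bases; 82.5 to 93.1% of low values lay within 0.1 of a multiple. All 7 members are described. Of each pathway list, called genes (up to 5 by p) or else the 2 with the smallest p were eligible to be named, and of likeness the 5 highest r among genes with a mean of at least 1 FPKM. Sequences are from RefSeq. The alternatives were 2 other pseudocounts, 2 filters, median centring, quantile normalization, the compared groups alone, a replicate block, array weights, a robust prior and leaving out each library; leaving out the 3 libraries that stand apart was added after the data were seen. Only the members' level relative to the microglia markers was tested by exact permutation. Single results of 2 marker genes are not reported here.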

Additional observations from a re-analysis of the deposited data

Results flagged for a closer look

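Plcg2 in WT03M replicate 5 had 0.746 FPKM, the lowest of its group and far from the next library at 1.12 FPKM; its gap made up 0.804 of the range of the group, above the 0.71 that marks a sample far from the others among 5. About 1 in 20 groups is marked so by chance.

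The genotype difference of Trem2 differed between the ages by 0.94 on the log2 scale (SE 0.18, adjusted p = 0.109 in limma, which does not pass). At 3 months 5 of 5 TG03M libraries were below the WT03M mean, and at 10 months 5 of 5 TG10M libraries were above the WT10M mean.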

How the results depend on the processing

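Tyrobp at 10 months and Trem2 and Tyrobp between the ages of transgenic mice were called under every alternative run. The count of members called at 10 months was 1 with the compared groups alone, 5 with array weights (Spi1 and Cd33 added) and 1 to 4 with 1 library left out. For the interaction it was 2 with array weights (Trem2 and Tyrobp) and 0 to 1 with 1 library left out. Plcg2's call at 10 months was also lost with a pseudocount of 0.1 (adjusted p = 0.0566) and quantile normalization (0.0621). With the compared groups alone no interaction could be fitted. The number of all genes called at 10 months was 87, against 16 with the compared groups alone, 945 with array weights, 326 without the 3 libraries that stand apart, and 28 to 1600 with 1 library left out.

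The members' differences kept their sign in each alternative except near 0. With 1 library left out, Syk at 3 months ranged from -0.033 to 0.14, Cd33 at 3 months from -0.0054 to 0.14, Cd33 with age in wild-type mice from -0.12 to 0.032, the interaction of Inpp5d from -0.019 to 0.061 and Syk between the ages of transgenic mice from -0.00062 to 0.15. Relative to the microglia markers, 0 to 2 members passed at 10 months with 1 library left out, 2 without WT10M replicate 4. In that measure Syk at 3 months was 0.017 with a pseudocount of 0.1 and -0.101 to 0.074 with 1 library left out. Cd33 there was -0.019 at 10 months and -0.0023 at 3 months with a pseudocount of 1, -0.023 and -0.0093 against the summed markers, and -0.048 to 0.13 and -0.085 to 0.092 with 1 library left out. The cause of these shifts was not tested.

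Replicate numbers are shared between groups, and no pairing is stated. Same-numbered libraries of TG10M and WT10M correlated over 0.1 in 3 of 5 pairs (r from -0.166 to 0.66). Replicate 5 of both groups stands apart on the leading component. What these correlations reflect was not tested, and the main fit did not take the numbers as pairs. With the replicate block 2 members were called at 10 months, Plcg2 being lost (0.44, adjusted p = 0.0622), and 72 of all genes against 87; 4 of 10 libraries correlated best with their own number. Genes near 1 FPKM rest on few fragments, 38 to 92 per library for Spi1 and 69 to 147 for Syk, which limits what could be detected in them.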
